A study of Mus musculus with 4 samples.

Results

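The genes described here are the matrix metalloproteinases (Mmp), the secreted Adamts metalloproteinases and their tissue inhibitors (Timp). They were chosen by symbol alone, as every array target whose annotated gene name is Mmp with a number and at most 1 letter, Timp with a digit or Adamts with a number. The choice took 75 of 44170 targets, which belong to 43 of 24172 genes. Of these, 23 were Mmp genes with 35 targets, 16 were Adamts genes with 35 targets and 4 were Timp genes with 5 targets.

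By its labels, the study knocked down Men1 in Neuro2a (N2a) cells, a line derived from a mouse neuroblastoma. Men1 encodes the chromatin scaffold protein menin. Total RNA was hybridised to 4 single-colour arrays. In 1 group, 2 arrays held RNA of cells that received a scramble siRNA, with the genotype given as control. In the other group, 2 arrays held RNA of cells that received an siRNA against Men1. All cells were grown in DMEM with 10% FBS, and neither a dose nor a time after transfection is given in the labels. Whether the replicates are separate cultures is not stated in the labels. P-values therefore rest on the variation among the 4 arrays alone, and that variation could be purely technical. With 2 arrays on each side, exact permutation reaches no two-sided p under 0.33. Differences were therefore tested with limma's moderated statistic, fitted over all genes.

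Mmp and Adamts enzymes are zinc proteases that cut the proteins of the extracellular matrix, as well as receptors and growth factors held in it. They are made as inactive precursors whose prodomain must be cleaved off, in the best-known case at the cell surface, where a membrane-type Mmp and Timp2 together present and activate pro-Mmp2. Timps bind the active site and block it. In nervous tissue these enzymes are known for roles in neurite growth, in remodelling of the proteoglycan nets around neurons and in the invasive growth of tumour cells, and many of them are made mainly by connective tissue, vessel or immune cells.

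Values are intensities in arbitrary units, and a change is given as log2 of Men1 siRNA minus scramble siRNA with its moderated standard error (SE). Each gene was represented by its brightest target. Probes differ in how they bind, so levels are compared between arrays at 1 target and not between genes. Array medians lay between 145.9 and 151.2, and 5000 random probes read between 42.8 and 52.3. Values of 100 and more are called well above background, the lower limit of the authors' own table. Arrays correlated across targets with r = 0.948 and 0.945 within the groups and with r between 0.901 and 0.934 between them, and targets are not independent replicates. The arrays of scramble siRNA replicate 2 and Men1 siRNA replicate 1 were the pair at 0.934. At its brightest target Men1 itself read 6985 and 6222 in the scramble group and 2764 and 4109 in the knockdown group, with a change of -0.97 ± 0.35 (SE, n = 2 arrays per group), without passing the threshold of 0.05 (Benjamini-Hochberg adjusted p = 0.314). Its other target read 3843 and 3824 against 2989 and 3802, a change of only -0.19 ± 0.33, and the mean of both targets gave -0.58.

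Markers of several cell types other than a neuroblast were present on these arrays, and some moved with the groups. Of 10 markers of sympathoadrenal neuroblasts, 7 were matched, and 3 of these 7 were at or above 100 on every array. Th, the gene of the first enzyme of catecholamine synthesis, read between 95.0 and 141.6. Chga and Mycn were well above background, with lowest values of 3178 and 876.9. Isl1 read between 85.0 and 205.9 with overlapping groups, and Ddc between 72.7 and 117.4, with both scramble siRNA arrays under 100. The 8 neuron markers were at or above 100 on every array, and their summed level was 76155 and 93116 with scramble siRNA against 108136 and 110421 with Men1 siRNA. The 4 red cell markers, genes of a cell type that the labels do not name, summed to 25581 and 13217 with scramble siRNA and to 33361 and 39830 with Men1 siRNA, with all 4 changes positive and 0 past the threshold in limma (1 had an unadjusted p under 0.05). The 12 fibroblast and mesenchyme markers summed to 33373.5 and 33661 with scramble siRNA and to 9521 and 8741 with Men1 siRNA, with 2 lower in limma. Of these 12, 11 changes were negative and 1 positive, with a median log2 change of -1.80. Thy1, Pdgfra and Tcf21 had small changes of -0.20, -0.33 and -0.12 and Prrx1 had 0.40, so the sums do not describe every marker. For the 9 epithelial markers the sums were 29515 and 18777 against 1369 and 2267, with 4 lower, and for the 8 endothelial markers they were 9255 and 5693 against 1634 and 1661, with 1 lower. The 9 immune markers summed to 11530 and 8281 against 4369 and 6108, with 0 past the threshold in limma. Of these 9, 5 changes were negative and 4 positive, with a median log2 change of -0.20. Ptprc, Itgam, Cd3e and Cd79a were the positive ones, so the lower sums do not describe the whole list. Adipocyte markers, 6 in number, summed to 1001 and 970.2 against 8034 and 5392, with 1 higher. The 6 glia markers, of which 5 were at or above 100 on every array, summed to 4470 and 5052 against 5405 and 5030. None of the 6 passed the threshold in limma, and the glia changes went both ways. Of them 5 were positive, Olig2 and Mbp included, and that of Sox10 was negative (-1.16), with a median log2 change of 0.56. Beside these marker counts, 0.352% of all genes passed as lower and 0.0372% as higher. At an unadjusted p under 0.05 in limma, 6.47% of all genes were higher. In bulk RNA, fewer cells of a type and less RNA per cell cannot be told apart, and the part of these markers in the results for the proteases was not tested.

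**Figure D1:**
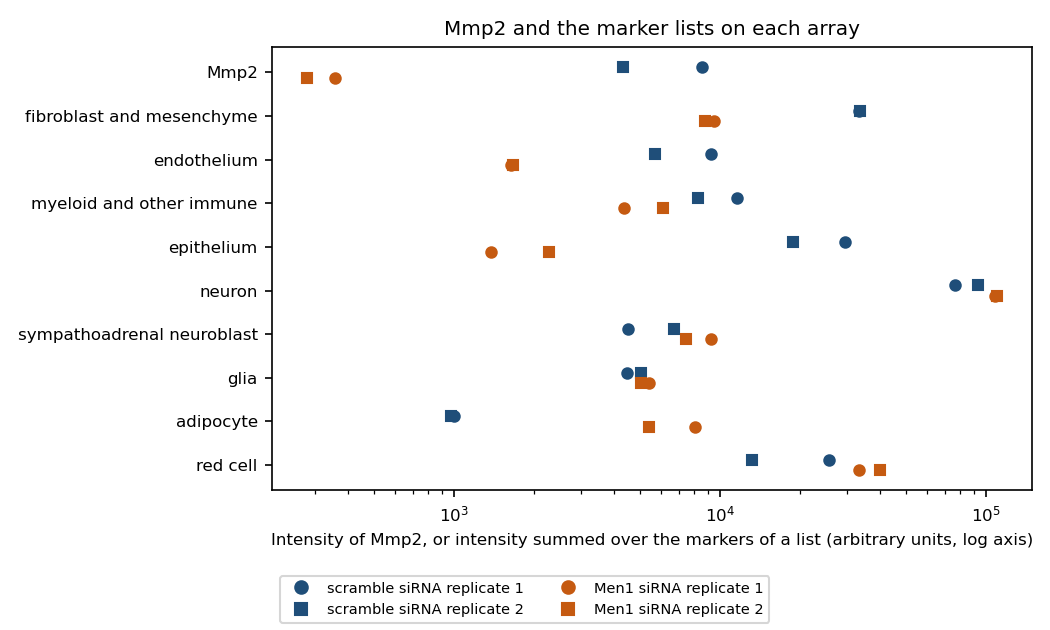
Intensity of Mmp2 and intensity summed over each marker list (arbitrary units, log axis) on the 4 arrays, with blue for scramble siRNA, orange for Men1 siRNA, circles for replicate 1 and squares for replicate 2. Mmp2 and the fibroblast, endothelial, immune and epithelial sums lie lower on both Men1 siRNA arrays, whereas the neuron sums of 108136 and 110421 lie above those of 76155 and 93116. Of the 9 immune markers, 5 changes were negative and 4 positive.

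Among the 43 genes 1, Mmp2, passed the threshold as lower with Men1 siRNA and 0 passed as higher. Over all genes 0.352% passed as lower and 0.0372% as higher. At an unadjusted p under 0.05, 12 of the 43 were lower (27.9%), beside 7.74% of all genes, and 4 were higher (9.30%), beside 6.47% of all genes. The 2 Men1 siRNA arrays were both below the 2 scramble siRNA arrays for 16 of the 43 (37.2%), beside 21.7% of all genes, and above them for 7 (16.3%), beside 25.8%. Mmp10 and Adamts19 among the lower and Mmp3, Mmp8 and Adamts20 among the higher had both group means under 100. The median log2 change was -0.06 over the 43 genes and 0.06 over all genes. Without single arrays the former ran from -0.44 (without scramble siRNA replicate 2) to 0.13 (without scramble siRNA replicate 1), so its sign is not settled. By family, 13 of 16 Adamts genes were negative with a median of -0.75. For the Mmp genes 10 of 23 were negative with a median of 0.13, and 1 of 4 Timp genes was negative with a median of 0.43. A group mean of at least 100 was reached by 14 of the 16 Adamts, 11 of the 23 Mmp and all 4 Timp genes. The families are therefore not alike in signal. The median of the 43 genes is the value of Mmp20 and that of the Mmp genes the value of Mmp1a, both under 100 on every array. Groups did not overlap, with Men1 siRNA lower, for 10 Adamts, 6 Mmp and 0 Timp genes. These counts and medians are descriptions and were not tested as sets.

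**Figure D2:**
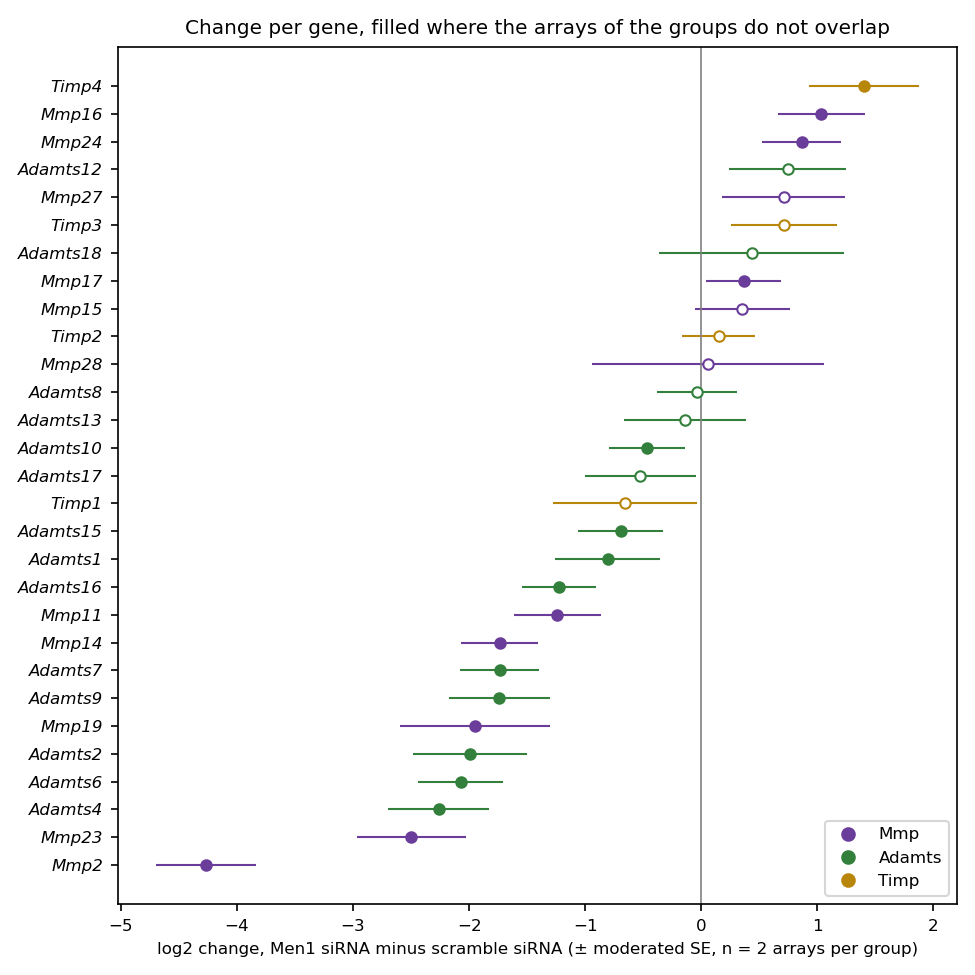
Log2 change (Men1 siRNA minus scramble siRNA) of the 29 genes with a group mean of at least 100, with the moderated SE as bars, coloured by family and filled where the arrays of the 2 groups do not overlap. Mmp2 stands at -4.27, 11 genes including Mmp2 lie at or below -1, and Timp4 has the highest value, 1.40.

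Gelatinases cut denatured collagen and the type IV collagen of basement membranes. Mmp2 (gelatinase A, gene ID 17390, chromosome 8, 95351226 to 95377319 on MM9) read 8517 and 4321 in the scramble group but 355.5 and 279.3 in the Men1 siRNA group. Both Men1 siRNA arrays were far below both scramble siRNA arrays, although the scramble arrays themselves differed. Mmp2 fell by 4.27 ± 0.43 on the log2 scale (SE, n = 2 per group), 19.2-fold, with an adjusted p of 0.0403 in limma. It has 1 target, so no other probe set bears on it. Leaving out any 1 of the 4 arrays kept the change between -4.76 and -3.78 and ended the call, with adjusted p between 0.111 and 0.256. Setting values under 100 to 100 left the change as it was and ended the call too (adjusted p = 0.195), and so did a block that crossed the replicate numbers (0.0681). Mmp9, the other gelatinase, was under 100 on 3 arrays and read 106.1 on Men1 siRNA replicate 1.

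The membrane-type Mmps are anchored in the plasma membrane, and their values went both ways. Mmp14 (MT1-MMP, gene ID 17387, chromosome 14, 55050448 to 55060101 on MM9) is the main activator of pro-Mmp2 and also cuts fibrillar collagen. Its intensities were 1678 and 1301 in the scramble group, against 407.5 and 482.4 after Men1 siRNA. The groups did not overlap, and its log2 change of -1.74 ± 0.33 did not pass (adjusted p = 0.125). Mmp16 (MT3-MMP), which can also activate pro-Mmp2, read 414.1 and 675.9 against 1165 and 1007, a log2 change of 1.03 ± 0.37 (adjusted p = 0.314). Its other targets gave 0.11 and -0.09, the latter with both group means under 100. Mmp24 (MT5-MMP), known from neurons, where it cuts N-cadherin, read 757.9 and 1075 against 1686 and 1601, a log2 change of 0.86 ± 0.34 (adjusted p = 0.342). For both genes the Men1 siRNA arrays lay above the scramble siRNA arrays, without passing the test. Mmp17, which is held by a glycolipid anchor, read 10892 and 13586 against 16590 and 14785, with a log2 change of 0.36 ± 0.32 (adjusted p = 0.648) and no overlap between the groups. Mmp15 (MT2-MMP) read 1428 and 1040 against 1178 and 2056, and its groups overlapped (0.35 ± 0.41). Of 6 membrane-type genes, 3 therefore had both Men1 siRNA arrays higher (25.8% over all genes) and 1, Mmp14, had both lower (21.7% over all genes).

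Several secreted or shed Mmps outside these groups had lower Men1 siRNA arrays. Mmp23, whose product is tethered by an N-terminal anchor and released when it is cleaved, lies on chromosome 4 (155024785 to 155027399 on MM9). Its brightest target read 1112 and 1459 against 152.3 and 334.2 (scramble against Men1 siRNA), a difference of -2.50 ± 0.47 that did not pass (adjusted p = 0.123). Its other target read 1018 and 1252 against 130.7 and 85.9. In the fit of all targets as separate features, where 0.312% of targets passed as lower, that target fell by 3.41 ± 0.37 (adjusted p = 0.0411). Mmp23 thus had both targets in 1 direction, and the call depended on which target stood for the gene. With the mean of both targets the gene passed as well, at a log2 change of -2.96 (adjusted p = 0.0388).

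Mmp11 (stromelysin-3), which is already activated inside the cell and is known from the stroma around tumours, read 249.0 and 317.5 against 149.4 and 95.0. Its log2 change was -1.24 ± 0.37 (adjusted p = 0.257), and its other target gave -1.50. Mmp19, which cuts basement membrane proteins, read 816.2 and 348.8 against 82.8 and 230.3, a log2 change of -1.95 ± 0.65 (adjusted p = 0.288). Its 3 targets were all negative but uneven, with -2.73 and -0.49 at the others. The groups did not overlap at the brightest target of either gene. Mmp28 (epilysin) had 1 high and 1 low array in each group, 247.0 and 52.2 against 54.3 and 257.1, so its log2 change of 0.06 ± 1.00 is a difference between means of unlike arrays. Mmp27 read 73.5 and 162.0 against 130.7 and 244.4, with overlapping groups (0.71 ± 0.53).

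**Figure D3:**
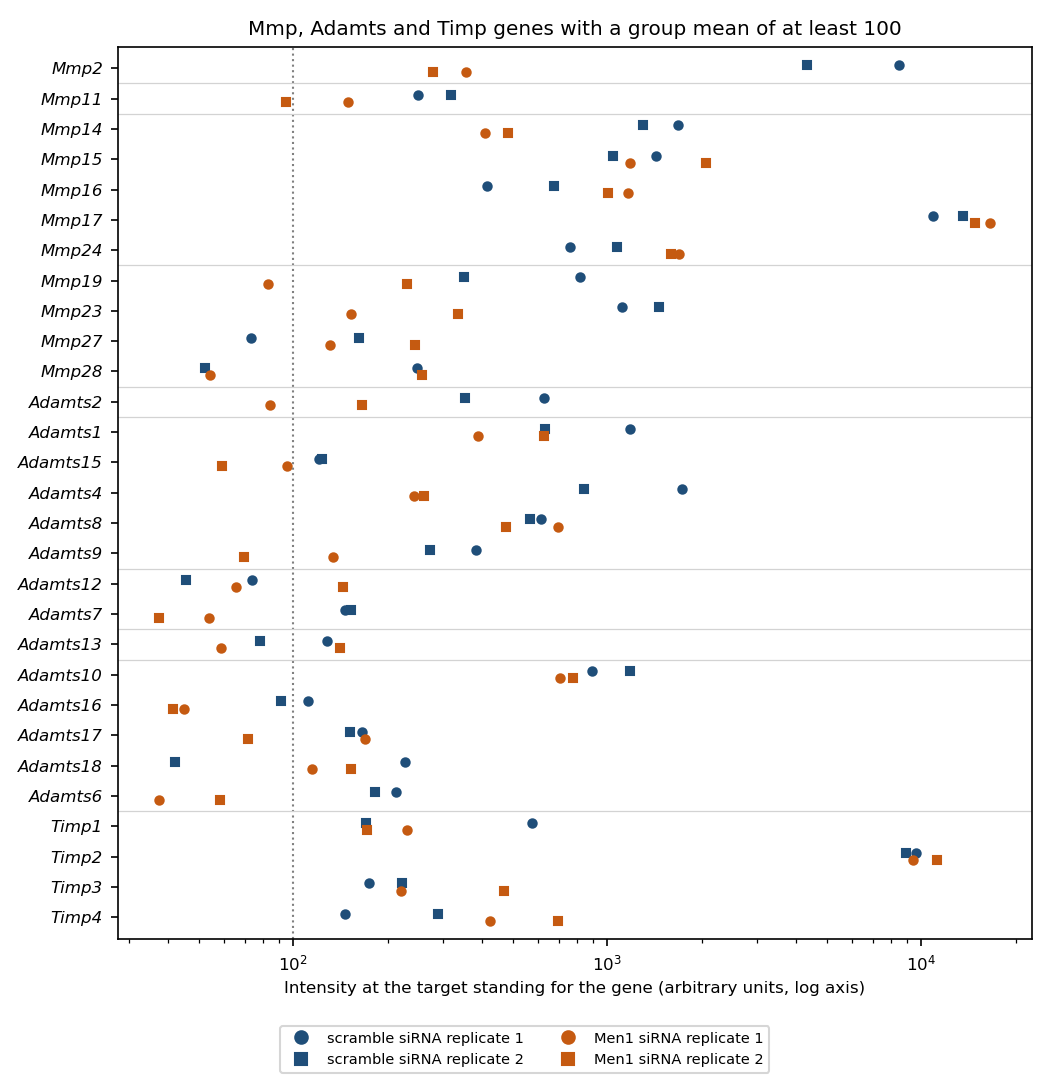
Intensity (arbitrary units, log axis) of the 29 genes with a group mean of at least 100 on each array at the target standing for the gene, with blue for scramble siRNA and orange for Men1 siRNA, circles for replicate 1, squares for replicate 2, and grey lines between functional classes. The dotted line marks 100; the Men1 siRNA points of Mmp2, 355.5 and 279.3, lie well to the left of its scramble siRNA points, while those of Timp2 overlap.

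The collagenases, stromelysins, matrilysin, macrophage elastase and enamelysin were mostly near background on these arrays. Of the 43 genes, 14 had a mean under 100 in both groups: Mmp1a, Mmp1b, Mmp3, Mmp7, Mmp8, Mmp9, Mmp10, Mmp12, Mmp13, Mmp20, Mmp21, Mmp25, Adamts19 and Adamts20. Their 56 array values ran from 20.4 to 157.3 with a median of 47.1, and 6 of the values reached 100. For these genes a change cannot be told from a change in background at this signal. Many of them lie side by side: on chromosome 9, between 7272513 and 7699416 on MM9, are Mmp13, Mmp12, Mmp1b, Mmp3, Mmp1a, Mmp10, Mmp8, Mmp27, Mmp20 and Mmp7, the cluster of secreted Mmps. These 10 genes had 15 targets. At the targets standing for the genes, array values ran from 20.4 to 244.4 with a median of 45.8, and 5 of 40 reached 100, of which 3 were of Mmp27. Mmp27 was the only gene of the cluster with a group mean of at least 100.

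The promoters of the cluster are shown because they share sequence features that the symbol rule did not use. Sequences are the 250 bases before the annotated start of transcription, from RefSeq on GRCm38.p6, a build other than that of the array annotation. Of the 43 genes, 30 had an entry, with 33 entries in all. Mmp7, Mmp12 and Mmp23 had 2 each, and the others had 1. Mmp2, Mmp9, Mmp16, Mmp17, Mmp19, Adamts4, Adamts6, Adamts7, Adamts8, Adamts10, Adamts15, Adamts16 and Adamts19 did not. The letters searched were first TGANTCA, where N is any base, a loose form of the AP-1 site (TGAGTCA or TGACTCA) that reads the same on both strands. The TATA box was searched as TATAAA on both strands. The GC box, a site type of Sp factors that is frequent in promoters rich in CpG, was searched as GGGCGG, also on both strands. Mmp10 (chr9:7502092-7502341, plus strand) and Mmp13 (chr9:7272264-7272513, plus strand) come from the cluster and were near background. Mmp14 (chr14:54431348-54431597, plus strand) and Mmp24 (chr2:155775092-155775341, plus strand) are membrane-type genes outside it that were well above background. Each is printed 5′ to 3′ in lower case with the motif matches in capitals.
Mmp10: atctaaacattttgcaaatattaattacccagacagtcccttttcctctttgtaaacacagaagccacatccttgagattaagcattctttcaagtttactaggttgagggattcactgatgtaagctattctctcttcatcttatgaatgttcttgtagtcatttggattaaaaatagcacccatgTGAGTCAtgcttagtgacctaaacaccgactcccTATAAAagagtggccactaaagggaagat
Mmp13: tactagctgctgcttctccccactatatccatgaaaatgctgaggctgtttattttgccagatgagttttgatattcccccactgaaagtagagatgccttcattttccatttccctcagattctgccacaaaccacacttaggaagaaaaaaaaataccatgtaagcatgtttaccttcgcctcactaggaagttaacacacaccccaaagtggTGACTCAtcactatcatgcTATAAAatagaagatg
Mmp14: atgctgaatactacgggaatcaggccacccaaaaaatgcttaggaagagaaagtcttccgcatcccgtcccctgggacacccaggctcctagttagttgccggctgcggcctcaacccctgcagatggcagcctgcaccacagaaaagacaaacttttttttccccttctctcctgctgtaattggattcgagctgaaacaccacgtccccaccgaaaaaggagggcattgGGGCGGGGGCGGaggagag
Mmp24: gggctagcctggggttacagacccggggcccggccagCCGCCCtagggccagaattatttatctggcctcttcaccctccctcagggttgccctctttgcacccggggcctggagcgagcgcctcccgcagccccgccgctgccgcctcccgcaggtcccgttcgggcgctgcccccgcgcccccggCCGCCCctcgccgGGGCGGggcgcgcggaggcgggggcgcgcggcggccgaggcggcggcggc
In Mmp10 the AP-1 type match spans bases -63 to -57 from the start and the TATAAA match -29 to -24. In Mmp13 they span -35 to -29 and -16 to -11. Mmp14 has 2 GGGCGG matches end to end, from -19 to -8, and Mmp24 has 3, of which 2 are on the other strand and so appear as CCGCCC.

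Counted over promoter entries, the AP-1 type motif was found in 8 of the 12 of the cluster, 0 of 9 of other Mmp genes, 0 of 8 of Adamts genes and 0 of 4 of Timp genes, beside 6.75% of all 32851 entries of the same length. Mmp7 and Mmp12 each had 1 entry with it and 1 without, and Mmp8 and Mmp27 had none with it. The match of Mmp20 reads TGAATCA, which only the loose form takes, and the others read TGAGTCA or TGACTCA. The TATA box motif was found in 7 of the 12 cluster entries, 1 of 9 of other Mmp genes (Mmp21), 1 of 8 of Adamts genes (Adamts1) and 0 of 4 of Timp genes, beside 12.4% of all entries. The GC box motif was found in 0 of the 12 cluster entries, 6 of 9 of other Mmp genes, 5 of 8 of Adamts genes and 3 of 4 of Timp genes, beside 32.7% of all entries. Matches of different motifs did not overlap in these 30 genes. The 8 genes with the AP-1 type motif were all among the genes near background on these arrays, and neighbouring genes of 1 cluster share their origin, so they are not independent examples. A match is a description of letters in this window and not a bound site or a cause, and a missing match says only that these letters are not in it.

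**Figure D4:**
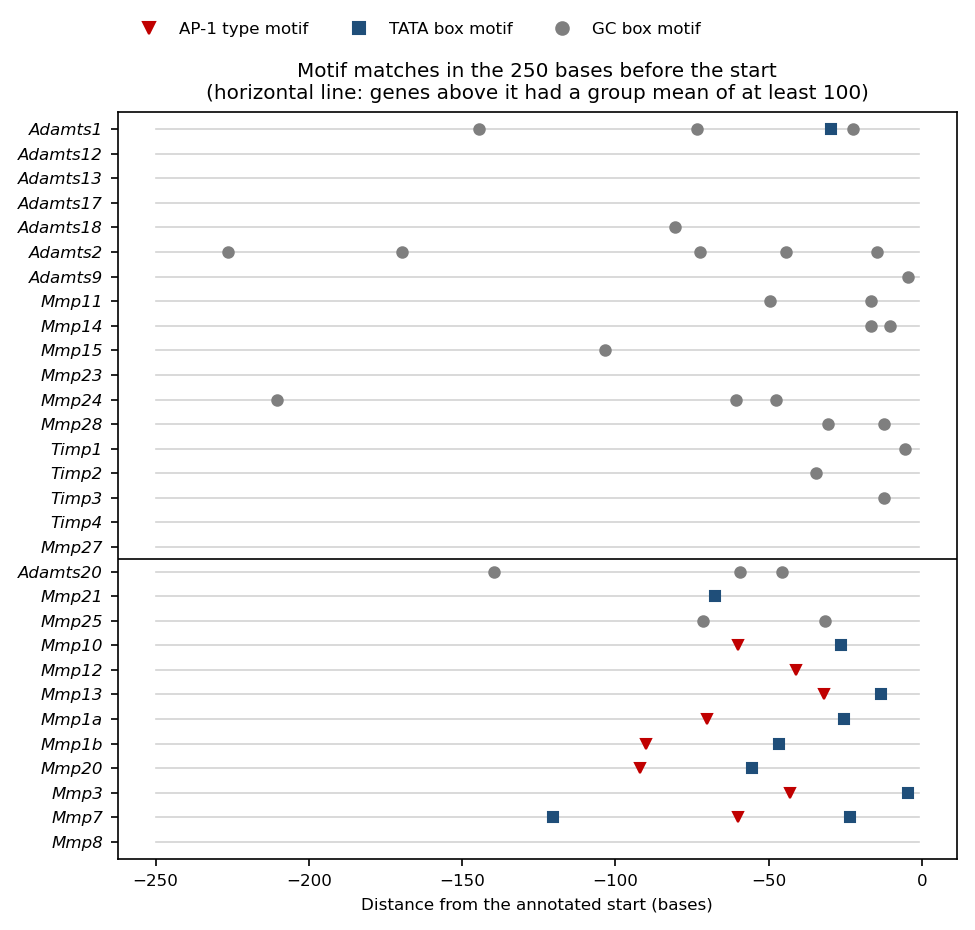
Position of motif matches in the 250 bases before the annotated start (x axis, bases from the start) for the 30 genes with a promoter entry, with red triangles for the AP-1 type motif, blue squares for the TATA box motif and grey circles for the GC box motif. Genes above the horizontal line had a group mean of at least 100; all 8 AP-1 type matches lie below it, in the chromosome 9 cluster.

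Among the Adamts genes, those that cut the large proteoglycans aggrecan, versican and brevican come first. Adamts4 (aggrecanase-1, gene ID 240913, chromosome 1, 173180929 to 173190046 on MM9) read 1731.5 and 840.6 in the scramble group, against 243.1 and 261.1 after Men1 siRNA. The Men1 siRNA arrays lay close together and below both scramble siRNA arrays, with a log2 change of -2.26 ± 0.44 that did not pass (adjusted p = 0.127). Its other target gave -2.12 ± 0.52. Adamts9, which cuts versican, read 382.0 and 273.1 against 133.7 and 69.9 at its brightest target (-1.74 ± 0.44, adjusted p = 0.198). Its 4 targets were split: the others gave -0.52, 0.18 and 0.20. Adamts1, an enzyme of the same substrates, read 1177 and 634.1 against 387.4 and 629.1 (-0.81 ± 0.45, adjusted p = 0.479), and its other target gave -0.17. Here the groups were separated only by the small distance between 634.1 and 629.1. Adamts15 read 120.7 and 123.0 against 95.7 and 59.4, at least 1.22-fold lower, without passing (adjusted p = 0.452). Adamts8 read 615.5 and 569.1 against 694.6 and 477.2, with a change of -0.04 ± 0.34. Adamts20 had both group means under 100 and read 56.3 and 45.2 against 89.8 and 103.7 (0.94 ± 0.32, adjusted p = 0.298).

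Adamts2 removes the N-terminal propeptide of fibrillar procollagens. It read 627.8 and 351.0 against 84.2 and 165.1, a log2 change of -1.99 ± 0.49 that did not pass (adjusted p = 0.191). Its other target gave only -0.32 ± 0.33, so the size of the difference rests on 1 probe set. Adamts7 and Adamts12 cut cartilage oligomeric matrix protein. Adamts7 read 146.1 and 153.2 against 53.8 and 37.4, at least 1.50-fold lower because both Men1 siRNA arrays were under 100 (adjusted p = 0.132). Adamts12 read 74.1 and 45.5 against 65.5 and 144.5, with overlapping groups (0.74 ± 0.50).

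Of the 6 other Adamts genes, 4 had both Men1 siRNA arrays lower (21.7% over all genes), and all but Adamts10 had low signal. Adamts6 read 213.1 and 181.9 against 37.5 and 58.5, at least 1.97-fold lower, with the second smallest p of all 43 genes (adjusted p = 0.108). Its other target stayed between 44.3 and 54.8 on every array, under 100 throughout. Adamts16 read 111.5 and 91.1 against 44.8 and 41.5, at least 1.01-fold lower (adjusted p = 0.208). Adamts19, on chromosome 18, read 115.6 and 80.4 against 27.5 and 32.3 (-1.69 ± 0.35, adjusted p = 0.144). Since its mean was under 100 in both groups, no fold is given for it. Adamts10, which binds fibrillin microfibrils, was well above background and read 893.8 and 1178 against 708.1 and 777.8 (-0.47 ± 0.33, adjusted p = 0.563). Of its 5 targets, the others were dimmer and gave -0.93, -0.13, -0.09 and 0.01. Adamts13, the protease of von Willebrand factor, read 128.2 and 78.5 against 59.0 and 140.5. Adamts17 read 165.7 and 151.5 against 168.7 and 71.9, and Adamts18 read 226.6 and 42.1 against 114.4 and 152.3. The groups of these last 3 genes overlapped, with changes of -0.14, -0.52 and 0.43.

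**Figure D5:**
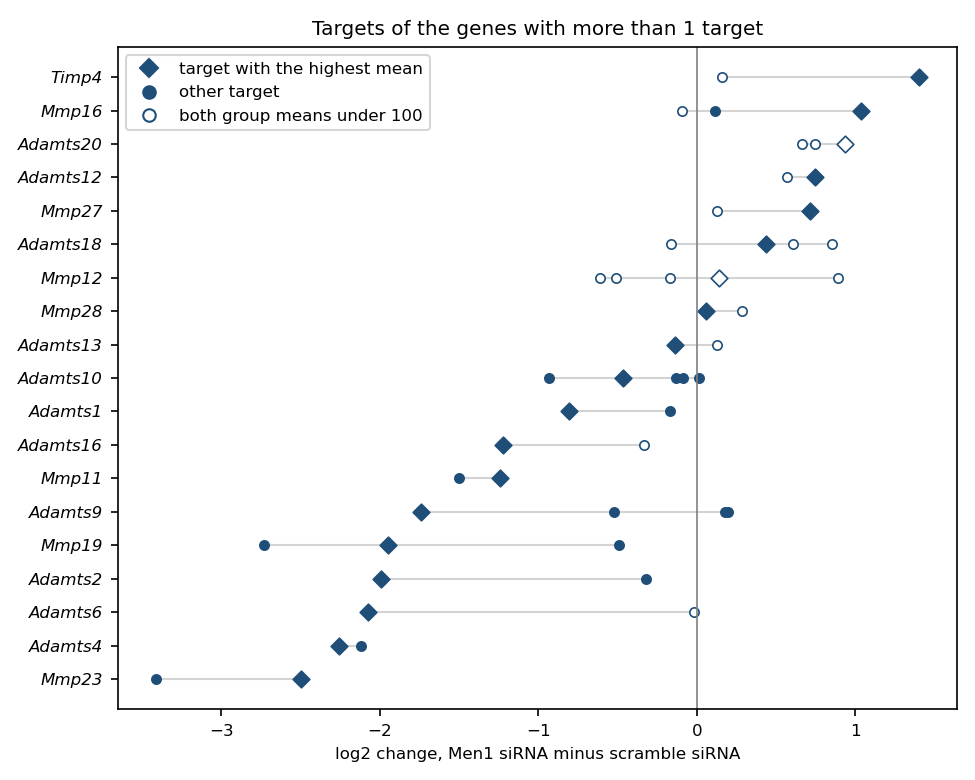
Log2 change (Men1 siRNA minus scramble siRNA) of every target of the 19 genes with more than 1 target, with diamonds for the brightest target, circles for the others and open symbols where both group means are under 100. Both targets of Mmp23 (-2.50 and -3.41) and of Adamts4 (-2.26 and -2.12) lie together, whereas those of Adamts9 spread from -1.74 to 0.20.

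Of the 19 genes with more than 1 target, 13 had all targets on 1 side of 0. Of the 12 genes lower at an unadjusted p under 0.05, 4 had both Men1 siRNA arrays under 100, and their log2 changes ran from -4.27 to -1.23. In 9 of the 12, scramble siRNA replicate 1 was the higher of the scramble arrays, as in Mmp2, Adamts4 and Mmp19.

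Of the Timps, 3 had positive and 1 had a negative change, and none passed the test. Timp2, which inhibits Mmps and is also needed for activation of pro-Mmp2 by Mmp14, read 9620 and 8922 in the scramble group, against 9403 and 11235 after Men1 siRNA. The groups overlapped, and the change of 0.15 ± 0.31 was smaller than its error. Timp4, known from brain, heart and fat, read 146.1 and 289.9 against 424.6 and 695.7, with both Men1 siRNA arrays higher (1.40 ± 0.47, adjusted p = 0.292). Its other target was under 100 on all arrays and gave 0.16. Timp3, which is bound to the matrix and also inhibits Adamts enzymes, read 174.1 and 221.8 against 220.2 and 468.7 (0.71 ± 0.46, adjusted p = 0.532). Timp1 read 577.2 and 170.4 against 229.9 and 171.3 (-0.66 ± 0.62), and without scramble siRNA replicate 1 the change was 0.22.

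Other genes of the same pathways were read from 4 lists. Of the matrix substrates (collagens, proteoglycans and glycoproteins), 33 of 37 were measured, 3 fell and 0 rose at the threshold, beside 0.352% and 0.0372% of all genes, and the median log2 change was -0.47. Type I collagen is built from the products of Col1a1 and Col1a2. Col1a1 fell by 4.37 ± 0.34, from a mean of 11535 to 567.9 (adjusted p = 0.0327). Col1a2 fell by 3.57 ± 0.32, from 8319 to 704.6 (adjusted p = 0.0347). Nid1, which links the networks of basement membranes, fell by 3.53 ± 0.32 (adjusted p = 0.0347). Col3a1 and the proteoglycan gene Dcn had changes of -4.30 and -2.63 that did not pass (adjusted p = 0.0577 and 0.0852). Both are also on the list of fibroblast markers. Leaving out any 1 array ended all 3 calls.

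Of the activators, regulators and other inhibitors, 27 of 30 were measured and 0 passed in limma in either direction, with 4 lower and 1 higher at an unadjusted p under 0.05, beside 7.74% and 6.47% of all genes, and a median of -0.04. Reck, a membrane-anchored inhibitor of Mmps, read 769.7 and 780.8 against 260.0 and 57.4 (-2.67 ± 0.72, adjusted p = 0.219). Plat, the gene of tissue plasminogen activator, had a change of -1.39 and Ctsk, a collagen-cutting cathepsin, -1.60. The proprotein convertases Pcsk5 and Pcsk6 had changes of -1.12 and 1.36.

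The list of ADAM sheddases and Adamts-like genes also held the membrane peptidase genes Mme and Ece1, which are neither. Of this list, 20 of 21 were measured and 0 passed in limma. At an unadjusted p under 0.05, 3 were lower and 0 higher (7.74% and 6.47% over all genes), and the median was -0.01. The 3 were Mme, Ece1 and Adamtsl3. Mme (neprilysin, a membrane peptidase) read 3966 and 1180 against 169.2 and 81.6 (-4.20 ± 0.68, adjusted p = 0.0908). Adamtsl3, Ece1 and Adam17 had changes of -0.88, -1.17 and -1.08, and Adam23, which lacks protease activity, had 0.75. Of the AP-1 subunits and other regulators of protease transcription, 27 of 28 were measured and 0 passed in limma. Of these, 24 were negative, and the median was -0.69, beside 0.06 over all genes. At an unadjusted p under 0.05 in limma, 6 were lower and 0 higher (the same shares apply, 7.74% and 6.47%). Tcf7 and Snai1 had changes of -2.13 ± 0.34 and -2.46 ± 0.43 (adjusted p = 0.0880 and 0.104). Lef1 was at least 4.10-fold lower without passing (adjusted p = 0.127), and Stat3 and Tgfb3 had changes of -1.32 and -1.16. These are the genes of the list with the smallest p, and none of them encodes an AP-1 subunit.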

How the data were processed

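RNA labelled as that of N2a cells was measured on 4 single-colour arrays, 2 labelled scramble siRNA and 2 labelled Men1 siRNA. The authors deposited linear intensities, 1 per target on each array, which per the file headers were summarised by RMA (robust multi-array average). RMA combines the probes of a target into 1 value per array. How the images were scanned and corrected for background is not stated in the labels or headers. Although the design text says Agilent, the labels' protocol and the file layout are NimbleGen's, and the files were read as such. Gene names and MM9 coordinates are those of the files. The authors' value table, also deposited as intensities, holds 20620 targets and 19 of the 75 targets described. All 19 equal the per-array values of the same group within a relative tolerance of 1e-04, but with the 2 scramble siRNA columns exchanged. It served as an alternative only.

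Intensities were taken to log2 with no further normalization, and the control row was left out. The target with the highest mean stood for a gene, with 24172 genes tested in R 4.3.3 with limma 3.58.1 (lmFit, then eBayes), group as the only term, two-sided, with Benjamini-Hochberg adjustment over all genes. The test was tried on simulated data. Where both arrays of the dimmer group were under 100, a fold is "at least": the brighter group's mean against, per array, the higher of 100 and the dim value. Tables and plots were made with matplotlib 3.10.9, numpy 2.4.6 and pandas 2.3.3 under Python 3.11.15. The number of arrays limits the precision.

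The genes and lists were chosen with earlier results of these data known. By the rule for named genes, the 12 genes with the smallest p are given in full, genes with a group mean of at least 100 with their values, the others by name, and up to 5 genes per related list; 1 marker gene is not reported here. Alternatives were a replicate block, each array left out, median, quantile and cyclic loess normalization, the value table, a filter on a mean of at least 100, a pseudocount of 32, a floor at 100, targets averaged per gene or taken singly, an intensity-dependent prior and a threshold of 0.1. Crossed replicate numbers as a block were added after seeing the data. A slide or scan block was not run, since the headers name neither. They do hold an image identifier per array, and that of Men1 siRNA replicate 1 carries the number 2. Deviations of same-numbered arrays from their group means correlated with r = -0.175 across 24172 genes, so the numbers were not taken to pair the arrays. With 2 arrays per group the crossed numbers then correlate with the opposite sign, and the exchanged scramble siRNA columns of the value table give that crossed numbering. Which numbering is right was not settled.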

Additional observations from a re-analysis of the deposited data

How the results depend on the processing

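Of 29 genes with a group mean of at least 100, 22 kept the sign of their change under each of the 17 alternatives that gave a value. Some alternatives could not turn a sign, because they leave the log2 change as it is. These were both blocks, the fit of single targets, the intensity-dependent prior, the filter on a mean of at least 100 and the threshold of 0.1. The sign turned for Mmp15 (-0.049 to 0.75), Mmp28 (-1.07 to 1.18), Adamts8 (-0.31 to 0.23), Adamts13 (-0.77 to 0.49), Adamts17 (-1.14 to 0.090), Adamts18 (-0.78 to 1.65) and Timp1 (-1.54 to 0.22) when single arrays were left out. It also turned for Adamts8 under quantile normalization (0.011) and for Adamts13 and Adamts18 with a floor at 100 (0.066 and -0.19). The count of Mmp, Adamts and Timp genes called lower, 1, was 0 without any 1 array (lowest 0, highest 0), 0 with a floor at 100, 2 with the mean of all targets (Mmp2 and Mmp23), and 4 with the value table or with a prior that follows intensity (Adamts4, Mmp14, Mmp2 and Mmp23 in both). With the replicate block it remained 1, with 62 lower and 7 higher calls over all genes in place of 85 and 9, and the block changed no other call on a Mmp, Adamts or Timp gene. With the crossed replicate numbers as a block, which are those of the value table, 0 of these genes, 0 lower and 0 higher genes of all, and 0 of the related lists passed. Leaving out any 1 array left 0 lower and 0 higher calls over all genes in limma, with between 2105 and 3357 genes at an unadjusted p under 0.05, and 0 calls in the related lists. Over all genes the lower and higher calls were 368 and 54 with the value table, 178 and 15 with a mean of at least 100, 235 and 17 with a pseudocount of 32, 6 and 2 with a floor at 100, 588 and 123 with a prior that follows intensity, and 292 and 34 at an adjusted p under 0.1. The 3 lower calls of the related lists became 10, 6, 0 and 15 with the value table, the pseudocount, the floor and that prior, 8 at an adjusted p under 0.1 and 1 with the mean of all targets. The median change of the 43 genes, -0.06, ran from -0.44 to 0.13 without single arrays, and was -0.32 over the 17 genes in the value table and -0.47 with a mean of at least 100, where fewer genes are counted. The cause of the other shifts was not tested. Signal near background limits what can be said of the 14 genes under 100.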

Other observations

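Single arrays stood out for some genes near background. Mmp7 (matrilysin) read 157.3 on scramble siRNA replicate 2 and between 25.0 and 26.4 on the other arrays. Mmp13 (collagenase-3) read 157.2 on Men1 siRNA replicate 1 and between 35.1 and 56.9 on the others. Mmp25, an Mmp of leukocytes, read 144.3 on scramble siRNA replicate 1 and between 53.9 and 72.8 elsewhere. Mmp28 had its high values on scramble siRNA replicate 1 and Men1 siRNA replicate 2, while its other target lay between 29.5 and 72.7. These values are given without a test.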
